A study of Mus musculus with 12 samples.

Results

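The nuclear genes of oxidative phosphorylation were examined in germ cells and somatic cells of the mouse fetal ovary after maternal dexamethasone (dex), a drug that activates the glucocorticoid receptor, or after saline. Members were the protein-coding genes outside the mitochondrial chromosome whose symbol begins with Nduf, Uqcr, Cox4 to Cox8 or Atp5, or is Sdha, Sdhb, Sdhc or Sdhd. The pattern picked 94 of the 54532 genes in the count table, 44 for complex I, 4 for complex II, 8 for complex III, 20 for complex IV and 18 for complex V. Ndufa4, named for complex I but a subunit of complex IV, and its paralog Ndufa4l2 were counted with complex IV. Of the 94 members, 83 encode subunits of a finished complex and 11 do not, among them the 8 Ndufaf assembly factors of complex I. A count was found in some library for 93 members and in every library for 88, and 87 passed the low-count filter of every comparison. The symbol Atp5o names 2 genes in the table, and one of them had no count in any library.

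The design held 12 libraries, 3 for each of germ_saline, germ_dex, soma_saline and soma_dex. All embryos carried the Tg(Pou5f1-EGFP)2Mnn reporter, in which regulatory sequence of Pou5f1 drives GFP in germ cells, and no group carried a mutation of the glucocorticoid receptor. Dams were injected intraperitoneally with 10 µg dex per g body weight or with saline once a day from E12.5 to E15.5 (embryonic days), and ovaries were taken later on the last day. Cells were sorted by GFP into germ cells, which carry it, and somatic cells, which do not, the latter a mixture of every other cell type of the ovary, and each library pooled the ovaries of at least 2 litters. The agent reached the dam, so an effect in a sorted fraction cannot be told apart from a response of mother or placenta. Library totals lay between 14658503 and 18245507 counts. The 6 germ cell markers checked were called higher in germ cells in 6 of 6 cases in saline, and their summed level in the somatic libraries was 0.162% of the germ cell level in saline and 0.717% in dex. In the other direction, markers summed in a germ cell library, against the somatic mean of the same treatment, stood at 3.09% to 12.499% for pregranulosa, 3.87% to 15.2% for macrophage and 6.63% to 9.26% for endothelial cells. The share was lower for the other lists, at 0.54% to 1.10% for stroma, 0.11% to 0.53% for erythroid cells and 1.14% to 1.59% for pericytes. For macrophages, whose somatic sum was lower in dex, and for endothelium this share was higher in every germ_dex than in every germ_saline library. The endothelial share differed by gene. Pecam1 averaged 2.56 FPKM in germ_dex against 5.58 in soma_dex, and Kdr 0.18 against 16.9.

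Oxidative phosphorylation passes electrons from NADH (complex I) and succinate (complex II) through ubiquinone, complex III and cytochrome c to complex IV, which reduces oxygen to water. Complexes I, III and IV pump protons across the inner mitochondrial membrane, and complex V, the ATP synthase, uses the gradient to make ATP. All complexes but complex II also contain subunits encoded by mitochondrial DNA, and fetal oocytes are known for a mitochondrial pool that expands as they grow. Nuclear respiratory factor 1 (NRF1), ETS factors such as GABPA (nuclear respiratory factor 2) and YY1 are known regulators of these promoters.

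RefSeq promoter windows of 300 bases (250 before and 50 after the start, GRCm38.p6) matched 74 of the 94 members. The NRF1 core TGCGCA stood in 18 of the 74 windows (24.3%) against 8.06% of 27025 background windows of that length, on either strand. The background held the first listed window of each gene symbol. Members had the window nearest their gene start, so the windows compared were chosen differently. The ETS core CCGGAAG stood in 17 (23.0% against 9.12% of background windows) and the YY1 core AAGATGG in 10 (13.51% against 6.48%). The hexamer AGAACA of the glucocorticoid response element stood in 8 windows (10.8%), against 19.0% of the background. These are letter matches and not bound sites. The 5 windows printed belong to genes that recur in the comparisons and show each kind of match. Capitals mark the NRF1 core in Ndufa6 and Sdha, the ETS core (read on the opposite strand as CTTCCGG) in Cox8a, and the YY1 core in Ndufc1 and, on the opposite strand as CCATCTT, in Cox7c. Each sequence runs 5′ to 3′ along the gene.
Ndufa6, chr15:82354242-82354541, minus strand: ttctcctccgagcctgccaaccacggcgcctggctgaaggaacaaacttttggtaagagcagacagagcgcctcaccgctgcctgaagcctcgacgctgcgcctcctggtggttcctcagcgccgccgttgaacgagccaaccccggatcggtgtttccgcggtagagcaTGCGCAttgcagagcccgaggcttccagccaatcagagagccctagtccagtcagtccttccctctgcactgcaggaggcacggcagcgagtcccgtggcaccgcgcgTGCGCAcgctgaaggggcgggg
Sdha, chr13:74350191-74350490, minus strand: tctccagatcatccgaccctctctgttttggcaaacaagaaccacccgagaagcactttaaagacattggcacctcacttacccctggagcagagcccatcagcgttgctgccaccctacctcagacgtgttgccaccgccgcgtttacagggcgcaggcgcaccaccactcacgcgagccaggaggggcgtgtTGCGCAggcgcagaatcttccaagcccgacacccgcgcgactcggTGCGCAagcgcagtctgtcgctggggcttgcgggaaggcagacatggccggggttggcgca
Ndufc1, chr3:51408906-51409205, minus strand: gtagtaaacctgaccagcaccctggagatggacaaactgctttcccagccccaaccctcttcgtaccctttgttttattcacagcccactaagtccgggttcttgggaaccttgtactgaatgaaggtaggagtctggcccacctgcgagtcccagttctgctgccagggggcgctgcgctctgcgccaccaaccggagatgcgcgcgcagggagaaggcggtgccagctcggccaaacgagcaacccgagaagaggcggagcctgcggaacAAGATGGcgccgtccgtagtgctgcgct
Cox7c, chr13:86046746-86047045, minus strand: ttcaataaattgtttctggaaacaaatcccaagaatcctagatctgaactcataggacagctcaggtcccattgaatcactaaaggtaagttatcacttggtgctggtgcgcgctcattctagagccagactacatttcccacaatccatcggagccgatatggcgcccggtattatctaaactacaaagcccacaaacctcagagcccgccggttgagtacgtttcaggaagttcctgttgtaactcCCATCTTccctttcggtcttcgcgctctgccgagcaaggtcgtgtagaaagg
Cox8a, chr19:7217567-7217866, minus strand: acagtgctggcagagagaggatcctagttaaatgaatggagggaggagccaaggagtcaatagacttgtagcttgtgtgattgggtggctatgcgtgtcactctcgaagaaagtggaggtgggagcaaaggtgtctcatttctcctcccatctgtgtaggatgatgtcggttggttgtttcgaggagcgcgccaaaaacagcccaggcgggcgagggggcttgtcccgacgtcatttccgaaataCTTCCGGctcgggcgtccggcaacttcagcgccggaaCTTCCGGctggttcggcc

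The level of each complex was first taken as the sum of its subunits' FPKM (fragments mapped to a gene, scaled to its length and to library depth), a scale that allows genes of different length to be added. Complex I had the highest ratio between the cell types by this sum. Its 36 subunits summed to 1737 ± 209 FPKM (SD, n = 3) in germ_saline and 917 ± 27.1 in soma_saline, a ratio of 1.89, and all germ cell libraries lay above all somatic libraries. Ndufa1 alone supplied 313 FPKM of the germ_saline sum and 26.04 of the soma_saline sum. Without it the ratio was 1.60 in saline and 1.41 in dex, and the germ cell libraries still lay above the somatic ones. Complex II followed, with 227 ± 13.4 against 153 ± 9.38 FPKM and a ratio of 1.48, again without overlap. The sums for complexes III, IV and V were closer, with germ-over-soma ratios of 1.16, 1.14 and 1.09 in saline.

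In the dex libraries the same ratios were 1.66 for complex I, 1.47 for complex II, 0.965 for complex III, 0.906 for complex IV and 0.988 for complex V. Without Ndufa1, complex I in dex was thus below complex II. By summed CPM (counts scaled to library depth alone) the dex ratios of complexes III, IV and V were 1.04, 1.07 and 1.01, above 1, so their direction in dex depended on the scale. For complexes I, III, IV and V the 3 soma_dex sums lay above the 3 soma_saline sums, and for complex II the somatic groups overlapped. Complex IV, for example, spanned 928 to 959 FPKM in soma_dex and 843 to 891 in soma_saline. The germ cell sums of all complexes overlapped between dex and saline, and complex IV spanned 783 to 935 FPKM in germ_dex and 885 to 1038 in germ_saline. In bulk libraries, fewer cells of a type and less RNA per cell cannot be told apart. The members together took 0.757% to 0.865% of the counts of a germ cell library and 0.626% to 0.672% of a somatic one.

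**Figure D1:**
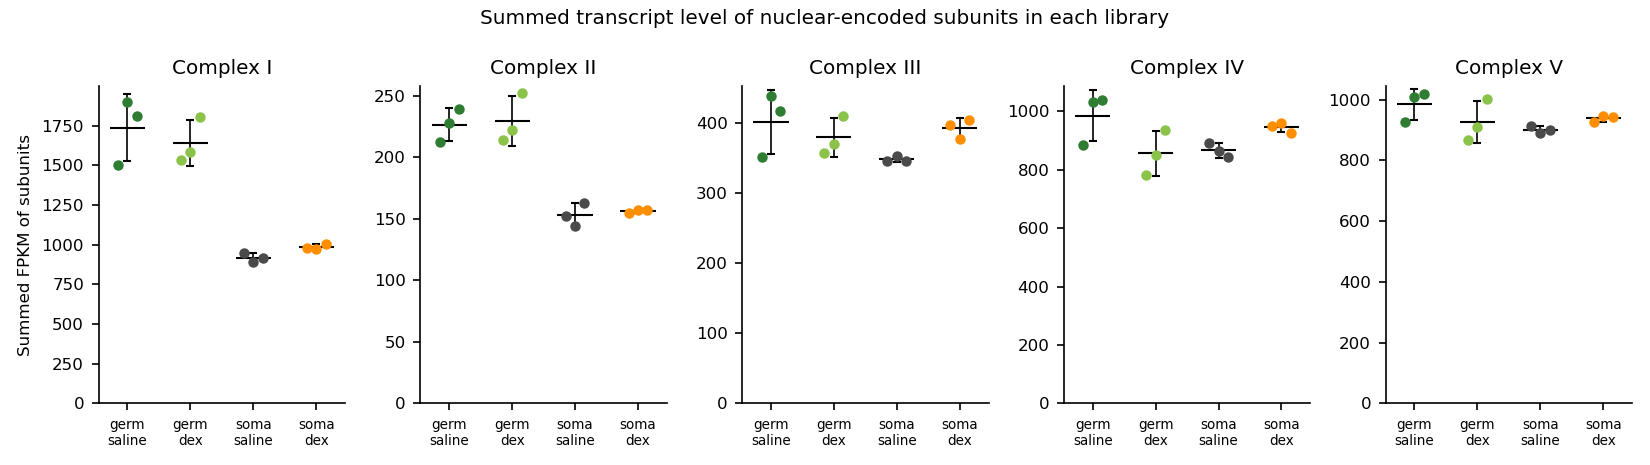
Summed FPKM of the nuclear-encoded subunits of complexes I to V (y axis, from 0) in each library of the 4 groups; points are libraries and bars are the mean ± SD of 3 libraries. Complexes I and II were higher in every germ cell library than in every somatic library, with complex I at 1737 FPKM in germ_saline and 917 in soma_saline.

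Subunits of the same complex were far from equal in FPKM. In germ_saline the complex I subunits ran from 1.08 FPKM for Ndufb2 to 313 for Ndufa1, with a median of 37.1, and in soma_saline from 1.81 for Ndufb2 to 71.2 for Ndufb11. In complex IV the lowest and highest widely expressed subunits were Cox7b (10.5 FPKM) and Cox7c (202) in germ_saline, and Cox5a (12.4) and Cox8a (170) in soma_saline. The order of subunits within a complex thus differed between the cell types. Members are short, with a median gene length of 1559.5 nt against 3840 nt for all genes tested in germ cells and 4032 nt in somatic cells, so FPKM of the shortest ones rests on few fragment positions. The ranges above also depend on annotated gene length, which is 5628 nt for Ndufb2 and 419 nt for Ndufa1. In soma_saline their mean counts were 167 and 179, while their FPKM was 1.81 and 26.04.

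Germ cells and somatic cells were compared gene by gene in the saline libraries. Of 91 members tested, 46 were higher in germ cells and 22 lower by edgeR's quasi-likelihood test with Benjamini-Hochberg adjustment at 0.05. Among all 17941 genes tested, 43.1% were higher and 42.9% lower, so a call by itself is common in this comparison. The members' median log2 difference was 0.24, against 0.00 over all genes. With a transcript length trend removed from each library the split was 44 higher and 31 lower, and with the GC trend removed 51 and 31.

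In the dex libraries, which the saline comparison does not use, 43 of 91 members were higher in germ cells and 29 lower, where 42% of all 18171 genes tested were higher and 42.2% lower. The median there was 0.10, and with the length trend removed the split was 34 higher and 35 lower. A call in the same direction in both comparisons was made for 62 members, 41 higher and 21 lower in germ cells, and none was called in opposite directions. Another 6 members were called in saline alone and 10 in dex alone. The reduction from 46 to 43 higher calls was not itself tested.

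The complexes split differently. Complex I had 26 of 44 members higher in germ cells and 7 lower (median log2 difference 0.55), complex II 3 of 4 higher and none lower (0.52), complex III 2 of 8 higher and 2 lower (-0.03), complex IV 10 of 18 tested higher and 6 lower (0.29), and complex V 5 of 17 tested higher and 7 lower (-0.07). In dex the medians were 0.28, 0.42, -0.33, 0.00 and -0.20 in the same order. Complex I and complex II thus had the highest medians in both sets of libraries. The difference between complexes was not tested.

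**Figure D2:**
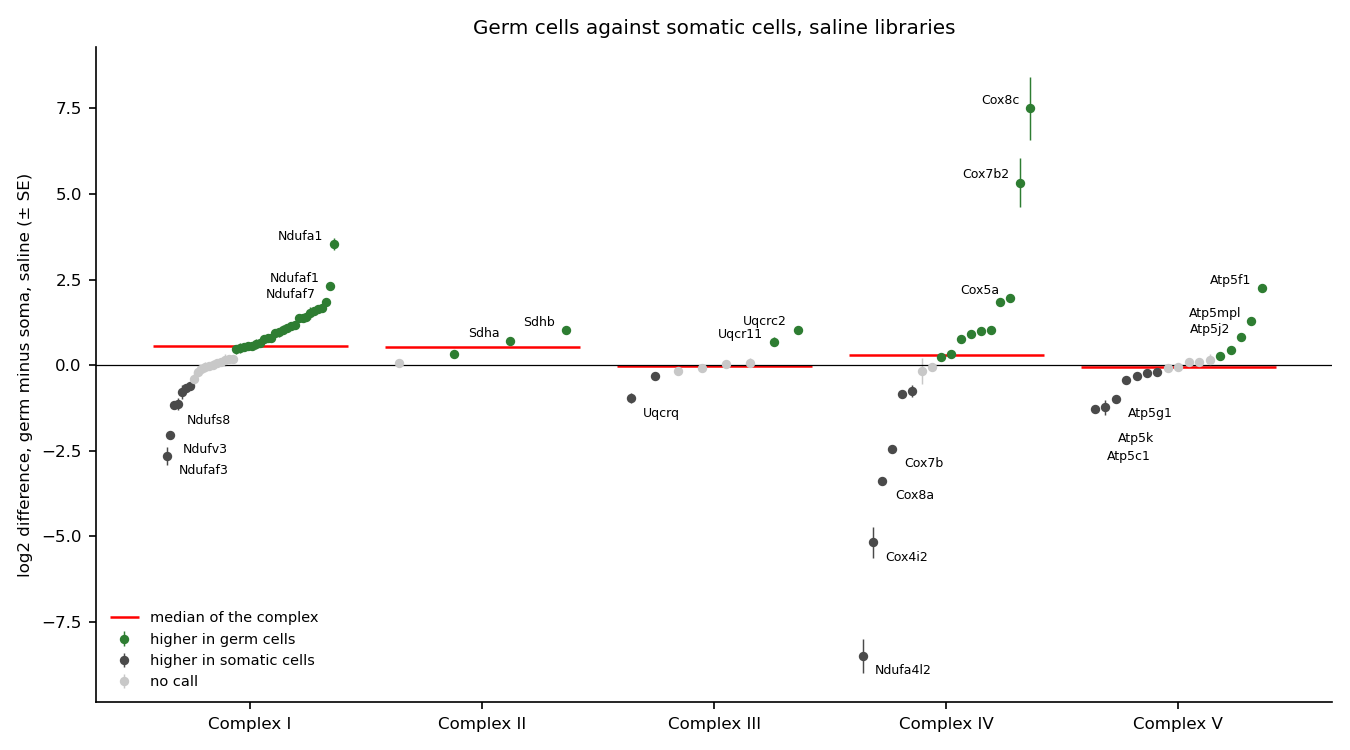
Fitted log2 difference between germ_saline and soma_saline (y axis, ± SE) for the 91 members tested, arranged by complex; green marks members called higher in germ cells, dark grey higher in somatic cells, light grey no call, and red lines are medians. The medians were 0.55 for complex I and -0.07 for complex V; the points of Cox8c, Cox7b2, Cox4i2 and Ndufa4l2 rest on few or no counts in one cell type, so their heights depend on the fit.

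Complex I takes electrons from NADH through nuclear-encoded core subunits that carry its flavin and iron-sulfur clusters. Core subunits were called in both directions in saline. Ndufv2 was higher by 1.60 on the log2 scale and Ndufv1, which binds NADH, by 1.42 ± 0.08 (SE). Ndufs1, the largest iron-sulfur subunit, was higher by 1.18, Ndufs7 by 1.15 and Ndufs3 by 0.76. Ndufs8, another iron-sulfur subunit, was lower in germ cells, with a log2 difference of -1.17.

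Of the 29 accessory subunits of complex I, 17 were higher in germ cells and 4 lower. The largest difference was that of Ndufa1, an X-linked subunit of the membrane arm. Ndufa1 read 230, 394 and 315 FPKM in the 3 germ_saline libraries and 250, 285 and 305 in germ_dex, against 25.1, 27.99 and 25.02 in soma_saline and 20.4, 24.7 and 22.02 in soma_dex. Every germ cell library was above every somatic one, and the saline log2 difference was 3.54 ± 0.17 (adjusted p = 3.63e-11). The other X-linked members did not share this: Ndufb11 differed by 0.19 without a call (adjusted p = 0.060), and Cox7b of complex IV was lower in germ cells, with a log2 difference of -2.44. Ndufv3, a subunit of the NADH-binding arm, read 4.52, 4.84 and 4.33 FPKM in germ_saline and 19.3, 16.9 and 17.8 in soma_saline, a log2 difference of -2.03 ± 0.11.

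The 8 Ndufaf assembly factors help to build complex I and are not part of the finished enzyme. In saline, 4 were higher in germ cells and 1 lower. Ndufaf1 read 51.2, 56.3 and 54.3 FPKM in germ_saline against 11.4, 9.52 and 10.7 in soma_saline, a log2 difference of 2.31 ± 0.09. Ndufaf7, a methyltransferase that acts on a complex I subunit, was higher by 1.84. Ndufaf3 was lower, at 0.753, 1.13 and 0.610 FPKM in germ_saline and 4.65, 4.40 and 6.20 in soma_saline (log2 difference -2.65 ± 0.27). The groups did not overlap for Ndufaf1 or Ndufaf3.

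Complex II, succinate dehydrogenase, also works in the citric acid cycle and has 4 subunits, all nuclear. The flavoprotein Sdha read 72.6, 72.7 and 74.5 FPKM in germ_saline and 43.9, 40.3 and 46.6 in soma_saline, and was higher in germ cells by 0.70 ± 0.07 on the log2 scale. The iron-sulfur subunit Sdhb read 51.8, 60.9 and 65.0 FPKM against 30.1, 27.0 and 27.99 (1.02 ± 0.09). Germ cell and somatic values of these catalytic subunits did not overlap. Of the membrane anchors, Sdhc was higher by 0.34 ± 0.08, and Sdhd, whose germ_saline values of 51.6, 53.5 and 57.7 FPKM overlapped the 49.3, 46.3 and 56.6 of soma_saline, was not called (0.05, adjusted p = 0.58). In both dex comparisons no subunit of complex II was called.

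Complex III passes electrons from ubiquinol to cytochrome c. Its core protein Uqcrc2 read 84.8, 90.8 and 93.2 FPKM in germ_saline and 40.6, 42.2 and 43.8 in soma_saline (1.04 ± 0.07), without overlap, while the partner core protein Uqcrc1 did not differ by the test (0.03, adjusted p = 0.68). The Rieske iron-sulfur subunit Uqcrfs1 was likewise not called (-0.09, adjusted p = 0.37). Among the small accessory subunits, Uqcr11 was called higher (0.68) and Uqcrq (-0.97 ± 0.14) and Uqcrh (-0.31) lower in germ cells. The direction of Uqcr11 turned with the length trend removed, to a log2 difference of -0.14 in saline and -0.33 in dex. In dex, 4 of the 5 accessory subunits were lower in germ cells and 1 higher.

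Complex IV, cytochrome c oxidase, has its catalytic core in mitochondrial DNA and a shell of nuclear subunits, several with isoforms that differ between tissues. Of 11 widely expressed subunits, 7 were higher in germ cells in saline and 3 lower. Cox5a read 44.6, 52.2 and 53.4 FPKM in germ_saline against 11.8, 12.1 and 13.3 in soma_saline (log2 difference 1.97 ± 0.09), and Cox7c, described below, was higher by 1.84. Cox8a went the other way, at 16.01, 15.45 and 18.9 FPKM in germ_saline and 14.7, 18.3 and 15.2 in germ_dex, against 167, 169 and 174 in soma_saline and 196, 190 and 171 in soma_dex. No germ cell library came near a somatic one, and the difference was -3.39 ± 0.10, or 10.5-fold lower in germ cells (adjusted p = 1.05e-13).

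Cox7b read 10.4, 11.1 and 9.84 FPKM in germ_saline and 59.0, 53.0 and 53.0 in soma_saline, 5.43-fold lower in germ cells. Cox6b1 was lower as well, by 1.78-fold (-0.83, adjusted p = 3.81e-07). These shifts were not those of the whole shell, since Cox4i1 (0.33), Cox5b (0.78), Cox6a1 (0.24), Cox6c (0.99) and Cox7a2 (0.91) were all higher in germ cells in saline and Ndufa4 was not called (-0.04). Cox7a2l, which links complexes III and IV into supercomplexes, was higher in germ cells by 1.03.

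The low Cox8a and Cox7b of germ cells coincided with counts of their rarer isoforms. Cox8c, known as a testis isoform, had 69 counts over the germ_saline libraries and none over soma_saline, which makes it at least 21.7-fold higher against a floor of 3 counts over the group. In dex the counts were 88 and 5, a ratio of 19.6 with a 95% counting interval from 8.07 to 61.7. Cox7b2, also known from testis, had 99 counts in germ_saline and 2 in soma_saline (ratio 46.8, interval 12.6 to 391), and in dex 85 and none (at least 31.5-fold higher). The intervals and floors cover counting error only.

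Within its family's FPKM, Cox8c made up 15.2% ± 1.62 (SD, n = 3) of the Cox8 transcripts in germ_saline and 20.01% ± 4.41 in germ_dex, and Cox7b2 made up 26.0% ± 5.87 and 26.8% ± 3.47 of the Cox7b family. The minor isoforms did not bring the families to the somatic level. The Cox8 family summed to 19.9 FPKM in germ_saline against 170 in soma_saline, and the Cox7b family to 14.1 against 55.1.

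Somatic cells held a different pair of isoforms. Cox4i2, an isoform known from lung and other oxygen-sensing tissue, made up 3.86% ± 0.39 of the Cox4 family in soma_saline and 0.08% in germ_saline, with 221 counts against 6 (ratio 39.0, interval 17.6 to 107). Ndufa4l2, known as a hypoxia-inducible paralog of Ndufa4, made up 13.6% ± 1.75 of that family in soma_saline, with 479 counts against 1 in germ_saline (ratio 507, interval 90.6 to 20073). Both are known as pericyte transcripts in several tissues.

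The remaining families showed smaller shifts. Cox6b2 stayed between 10.5% and 13.7% of the Cox6b family in all groups. Cox7a1, a heart and muscle isoform, made up 2.67% ± 0.65 of Cox7a1 plus Cox7a2 in germ_saline and 5.59% ± 1.30 in soma_saline. Cox6a2 and Cox8b, the other muscle isoforms, each averaged under 1% of their family in all groups. Of the genes for the c ring of ATP synthase, which encode the same mature protein, Atp5g2 supplied 58.7% ± 0.64 in germ_saline and 45.1% ± 1.42 in soma_saline, and Atp5g1 5.13% ± 0.19 and 10.6% ± 0.61.

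**Figure D3:**
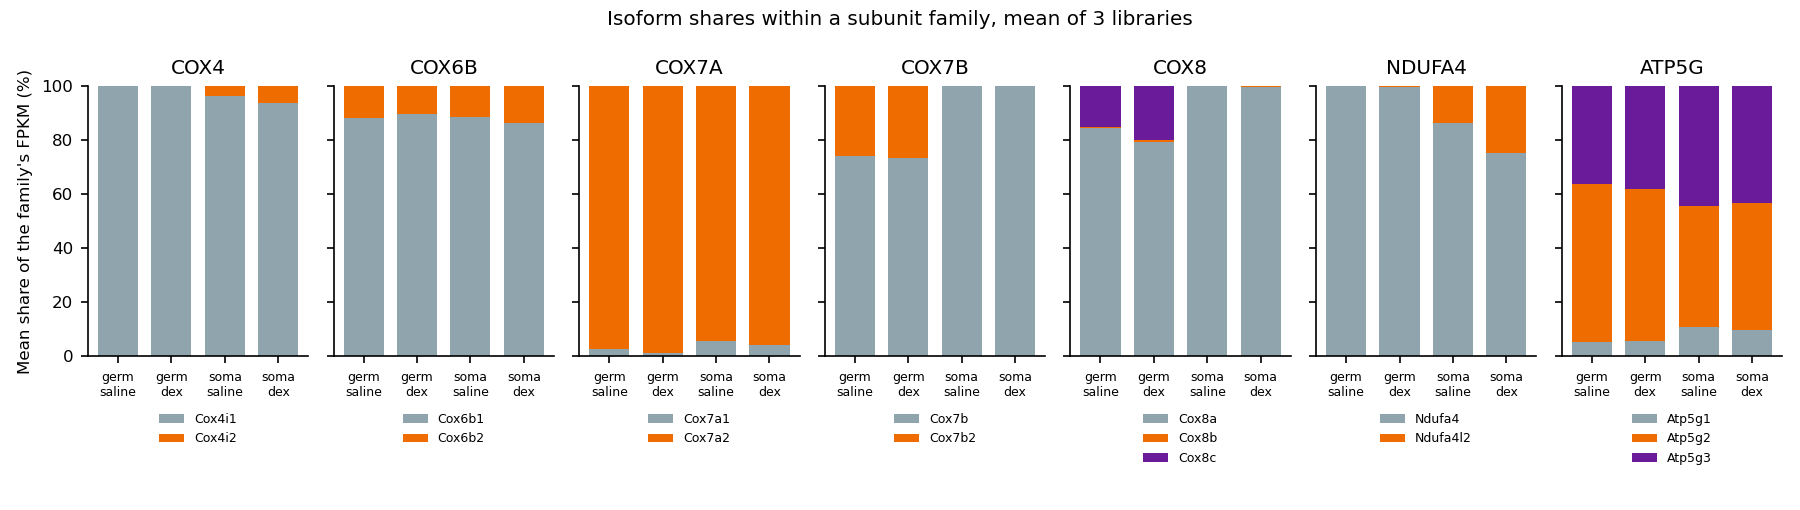
Mean share of a subunit family's FPKM (y axis, percent) taken by each isoform in the 4 groups, 3 libraries each. Germ cells held Cox7b2 and Cox8c (26.0% and 15.2% of their families in saline), somatic cells held Cox4i2 and Ndufa4l2 (3.86% and 13.6% in saline).

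Complex V makes ATP in a catalytic head turned by the c ring and held by a peripheral stalk. Of the 5 subunits of the head, 4 were lower in germ cells in saline. Atp5c1, the central rotor shaft, read 34.8, 32.4 and 36.6 FPKM in germ_saline and 81.3, 78.8 and 82.1 in soma_saline (-1.27 ± 0.07), and the groups did not overlap. The catalytic subunit Atp5b (-0.44) and its partner Atp5a1 (-0.31) differed less, and Atp5e was higher by 0.26 (adjusted p = 0.043).

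The peripheral stalk subunit Atp5f1 went the other way, at 158, 174 and 178 FPKM in germ_saline against 34.9, 33.6 and 34.2 in soma_saline, a log2 difference of 2.26 ± 0.08. The other 3 stalk subunits tested, Atp5h, Atp5j and Atp5o, were not called. In the membrane part, Atp5mpl (1.30) and Atp5j2 (0.83) were higher in germ cells and Atp5k lower (-1.23 ± 0.23). The members of this one enzyme thus ran from a log2 difference of -1.27 for Atp5c1 to 2.26 for Atp5f1.

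The promoter matches were read against these calls as a description. The NRF1 core stood in the windows of 12 of 37 members higher in germ cells, none of 17 higher in somatic cells and 6 of 19 without a call. The ETS core stood in 8, 5 and 4 of them, and the YY1 core in 7, 1 and 2. The background shares were 8.06% for the NRF1 core, 9.12% for ETS and 6.48% for YY1. With so few windows a class, the difference between classes was not tested. Ndufa6 and Sdha, printed with 2 NRF1 cores each, were higher in germ cells, and Cox8a, printed with 2 ETS cores, was lower.

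Reads of some members are shared with other loci. In the GENCODE M21 transcripts, 41 members share at least 1 stretch of 75 bases with another gene, and 40 overlap another annotated gene. The shared portion was 35.8% of such stretches for Atp5g2, 34.2% for the Atp5o gene with counts and 16.5% for Uqcrc2. It was 19.6% for Cox7c, 13.4% for Ndufb9, 10.1% for Atp5f1, 6.67% for Cox6c, 5.91% for Cox5a and 1.07% for Uqcrh. Not every member with shared stretches is listed. It was 0 for Ndufa1, Ndufa6, Ndufc1, Ndufs7, Uqcr10, Cox8a, Cox7b, Cox4i2 and Ndufa4l2. Ndufa4l2 overlaps Shmt2, Cox6c overlaps Vps13b and Atp5f1 overlaps Wdr77, so without stated strand some of their reads may belong to the neighbour.

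The dex comparisons ask whether the drug changed these genes in either compartment. In germ cells, 2 of 89 members tested were called, both lower in dex and none higher. Over all 16857 genes tested, 0.208% were called, and 0.119% were called lower. Ndufc1, a small membrane-arm subunit of complex I, read 31.2, 33.7 and 36.4 FPKM in germ_saline and 23.5, 21.98 and 24.8 in germ_dex. All dex libraries were below all saline libraries, and the log2 difference was -0.51 ± 0.09 (edgeR's quasi-likelihood test, adjusted p = 0.0435). Cox6c, a complex IV subunit, read 62.0, 72.9 and 69.8 FPKM in germ_saline and 45.3, 48.8 and 53.8 in germ_dex, again without overlap (-0.45 ± 0.08, adjusted p = 0.0435).

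Both calls were near the threshold. Ndufc1 was not called without germ_dex replicate 2 or 3 or germ_saline replicate 2 or 3, where its adjusted p lay between 0.093 and 0.261. Cox6c was not called without those libraries or without germ_dex replicate 1, where it lay between 0.055 and 0.235. Removing the GC trend from each library ended both calls (adjusted p = 0.075 and 0.060), as did the fit over all 12 libraries (0.067 and 0.071). The replicate block ended the call of Ndufc1 (0.053) and kept that of Cox6c (0.023).

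At an unadjusted p under 0.05, 17 of the 89 members were lower in dex and 4 higher, where 5.93% of all genes were lower. The dex and saline values did not overlap for 18 members with dex lower and 4 with dex higher, against 10.4% and 6.8% of all genes. The members' median log2 difference was -0.05, against 0.01 over all genes, and the lowest complex median was that of complex IV, at -0.16. The others lay between -0.04 and -0.01. Complex IV thus held 13 of 16 tested members below 0, of which Cox6c was called. Library by library, the members' median log2 deviation from the germ cell mean ran from -0.12 to 0.10 in germ_dex. It ran from -0.11 to 0.12 in germ_saline, so the groups overlapped. The complex IV median overlapped as well, at 0.056 in germ_dex replicate 3 and -0.051 in germ_saline replicate 1.

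Other complex IV members had lower values without a call. Cox7c read 180, 215 and 211 FPKM in germ_saline and 136, 160 and 156 in germ_dex, a log2 difference of -0.40 ± 0.08 with an adjusted p of 0.081. Cox7a1 had the lowest difference of all members, -1.48 ± 0.44, but at 0.978 FPKM in germ_dex and 2.79 in germ_saline it was scarce and not called (adjusted p = 0.25). Cox8c, Cox7b2 and Cox8a had adjusted p-values of 0.65, 0.90 and 0.95. In complex I, Ndufb9 (-0.47, adjusted p = 0.12) and Ndufs7 (-0.31, adjusted p = 0.17) were lower in each dex library than in each saline library and not called.

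Markers of other cell types were checked in the germ cell libraries, and none was called with dex (0 of 6 pregranulosa, 0 of 6 stroma, and 0 of 4 macrophage, 4 erythroid, 3 endothelial and 4 pericyte markers tested). Pregranulosa markers summed to between 17.2 and 69.6 CPM in germ_dex and 22.7 and 44.9 in germ_saline, and macrophage markers to between 5.17 and 9.65 and between 5.16 and 8.74. Pericyte markers summed to between 12.6 and 14.1 CPM in germ_dex and 8.90 and 11.3 in germ_saline, and endothelial markers to between 24.4 and 25.9 and between 20.8 and 23.6, so these sums were higher in every dex library. The endothelial sum rested on Pecam1 (2.56 FPKM in germ_dex and 1.54 in germ_saline), since Kdr, Cdh5, Tie1 and Emcn averaged lower in germ_dex. All 6 pregranulosa markers had a log2 difference above 0 (median 0.53), as had the 4 pericyte markers tested (median 0.43), against 1 of 3 endothelial markers (median -0.34). Their part in the lower values was not tested.

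In somatic cells, 5 of 89 members tested were called, all higher in dex. Over all 16556 genes tested, 8.18% were called, and 4.81% were called higher, so the members' share of higher calls is near that of all genes. Ndufa6, a complex I accessory subunit, read 27.3, 24.8 and 23.1 FPKM in soma_saline and 34.4, 35.0 and 32.8 in soma_dex. The groups did not overlap, and it rose by 0.44 ± 0.08 on the log2 scale (adjusted p = 0.00280). In germ cells Ndufa6 read 60.2, 70.4 and 70.6 FPKM in saline and 61.7, 62.3 and 67.9 in dex, which overlap.

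The small subunits Uqcr10 and Uqcrh of complex III were also called. Uqcr10 read 64.4, 67.2 and 59.2 FPKM in soma_saline and 84.1, 74.2 and 81.5 in soma_dex (0.33 ± 0.08, adjusted p = 0.0284). Uqcrh read 69.5, 66.5 and 66.6 in soma_saline and 76.4, 80.1 and 79.0 in soma_dex (0.22 ± 0.06, adjusted p = 0.0419). Neither overlapped between the groups. The 8 members of complex III all lay above 0, with a median of 0.16.

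The largest changes were in the isoforms that somatic cells hold. Ndufa4l2 read 8.71, 10.1 and 7.85 FPKM in soma_saline and 19.8, 19.3 and 17.4 in soma_dex, 2.12-fold higher (log2 difference 1.08 ± 0.13, adjusted p = 0.000194). Cox4i2 read 5.35, 6.33 and 5.38 FPKM in soma_saline and 9.14, 11.1 and 10.6 in soma_dex, 1.81-fold higher (0.85 ± 0.19, adjusted p = 0.0120). The dex libraries lay above the saline libraries for both. The widely expressed partners were not called, with log2 differences of 0.09 for Cox4i1 and 0.02 for Ndufa4. The share of Ndufa4l2 in its family was 24.8% ± 1.22 in soma_dex against 13.6% in soma_saline, and that of Cox4i2 was 6.37% ± 0.34 against 3.86%.

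Markers of pericytes, cells in which both isoforms are known to be expressed, were called in part. This marker list was added after the data were seen. Of 7 pericyte markers, 3 were called higher in soma_dex (Cspg4 by 1.06, Kcnj8 by 0.77 and Abcc9 by 0.55 on the log2 scale) and none lower, and the list summed to between 770 and 952 CPM in soma_dex and 763 and 793 in soma_saline, which overlap. The most abundant, Pdgfrb (63.5 FPKM in both groups) and Notch3 (28.9 in soma_dex and 28.4 in soma_saline), were not called, nor was Rgs5 (8.38 and 9.02). Macrophage markers fell in 3 of 6 cases, with sums of 35.0 to 82.7 CPM in soma_dex and 115 to 150 in soma_saline. Endothelial markers summed to between 265 and 297 CPM in soma_dex and between 293 and 340 in soma_saline, with 1 of 5 called higher and 2 lower. Pregranulosa markers had 1 of 6 called lower, stroma markers 1 of 6 higher, and erythroid markers none of 6. Of the germ cell markers in the somatic libraries, 1 of 4 tested, Dazl, was higher in dex. Whether the makeup of the somatic fraction took part in the 5 calls was not tested.

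The calls differed in how they depended on single libraries. Ndufa6 and Ndufa4l2 were called under all alternatives run. Uqcr10 was not called without soma_dex replicate 1 or without any 1 soma_saline library (adjusted p between 0.053 and 0.131) or with the length trend removed (0.072), and Cox4i2 without soma_dex replicate 2 or soma_saline replicate 1 or 3 (0.051 to 0.060). Uqcrh lost its call in 12 of 14 alternatives, with adjusted p from 0.051 to 0.199. These were the fits without any 1 of the 6 libraries, DESeq2 (0.055), no low-count filter (0.076), the replicate block, mitochondrial and haemoglobin genes left out, the length trend removed (0.083) and the fit over all 12 libraries. In the last of these Uqcr10 and Cox4i2 were not called either.

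At an unadjusted p under 0.05, 18 of the 89 members were higher in soma_dex and 1 lower, where 10.9% of all genes were higher. The groups did not overlap for 22 members with dex higher and 3 with dex lower, against 13% and 12.4% of all genes. The median log2 difference was 0.08 against 0.00 over all genes, with 74 of 89 members above 0. By complex the medians were 0.06 for complex I, 0.02 for complex II, 0.16 for complex III, 0.15 for complex IV and 0.04 for complex V. The shift was small for most members, with an upper quartile of 0.17.

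**Figure D4:**
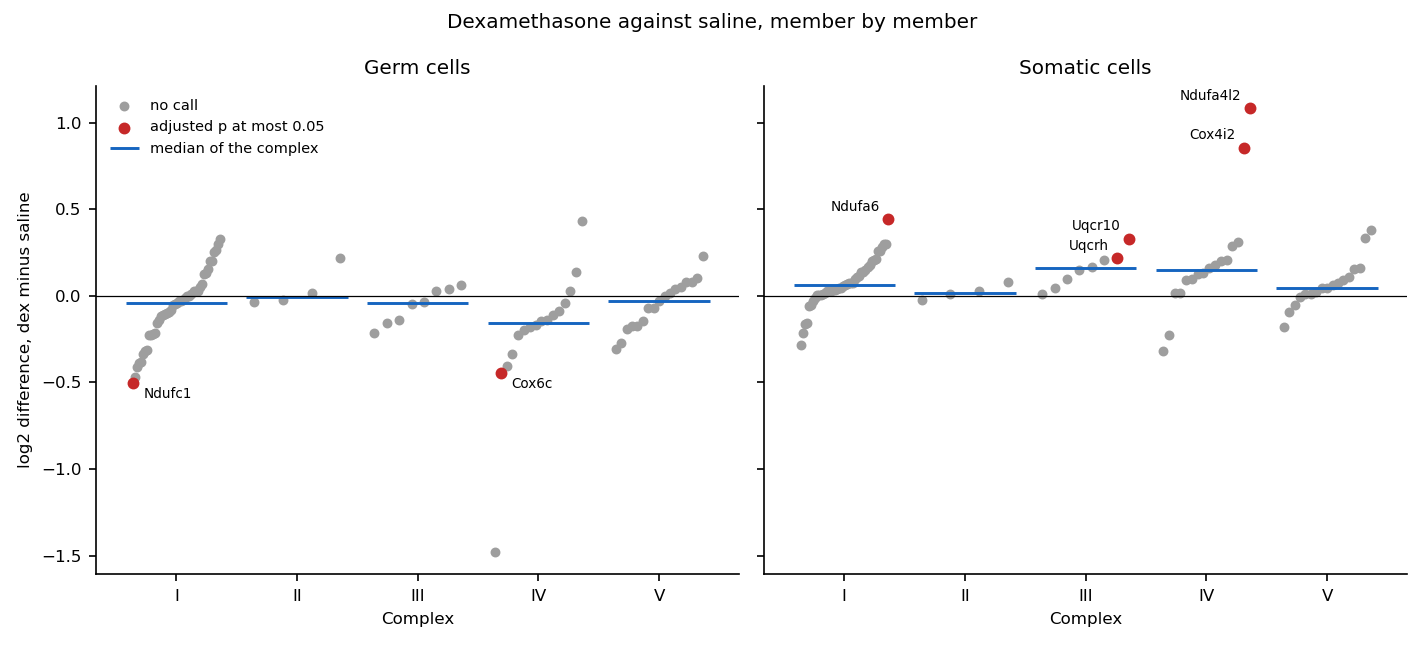
Fitted log2 difference between dex and saline (y axis) for each member tested in germ cells (left) and somatic cells (right), arranged by complex; red points were called at an adjusted p of at most 0.05, grey points were not, and blue lines are medians. Medians of complex IV were -0.16 in germ cells and 0.15 in somatic cells.

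The comparisons in germ and somatic cells share no library. Of 87 members tested in both, 52 were below 0 in germ cells and above 0 in somatic cells, 9 the reverse, 20 above 0 in both and 6 below 0 in both. Among 14178 genes tested in both, 3544 had the first pattern, 26.4% the reverse, 25.1% were above 0 in both and 23.4% below. Members were not independent of each other, so these counts are a description.

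The difference between the dex effects was tested directly, as the interaction in a model over all 12 libraries. Of 91 members tested, 5 were called, all with a lower effect in germ cells than in somatic cells. Over all 19390 genes tested, 1.62% were called, and 1.13% in that direction. At an unadjusted p under 0.05 there were 26 members in that direction and 2 in the other, where 7.99% of all genes were in that direction. The median over members was -0.13, against 0.01 over all genes, and the complex medians were -0.11, -0.01, -0.21, -0.25 and -0.10 for complexes I to V.

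The 5 were Cox7c and Cox6c of complex IV and Ndufb9, Ndufa6 and Ndufs7 of complex I. Cox7c, on chromosome 13 (chr13:86044816-86046904, mm10, minus strand), read 61.5, 56.9 and 45.9 FPKM in soma_saline and 66.9, 68.6 and 65.1 in soma_dex, against a lower germ_dex than germ_saline. Its log2 difference was -0.40 in germ cells and 0.29 in somatic cells (adjusted p = 0.081 and 0.077), and dex and saline values overlapped in neither. The difference of effects was -0.70 ± 0.14 (adjusted p = 0.0128), and this call held under all alternatives run.

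Ndufb9, an accessory subunit of the membrane arm, read 39.8, 49.5 and 51.3 FPKM in germ_saline and 32.3, 31.9 and 35.8 in germ_dex, and 24.1, 23.0 and 19.1 in soma_saline and 26.5, 25.4 and 27.2 in soma_dex (difference of effects -0.74 ± 0.16, adjusted p = 0.0248). Ndufs7, a core subunit near the ubiquinone site, read 59.4, 62.0 and 68.3 in germ_saline, 48.2, 46.2 and 55.9 in germ_dex, 29.4, 26.0 and 27.1 in soma_saline and 28.9, 32.6 and 31.5 in soma_dex (-0.50 ± 0.12, adjusted p = 0.0434). For Ndufb9 the dex and saline values overlapped in neither cell type, and for Ndufs7 they overlapped in somatic cells only. Cox6c differed by -0.63 ± 0.15 (adjusted p = 0.0378), its somatic values of 38.7, 33.6 and 27.5 FPKM in saline and 34.8, 40.8 and 37.0 in dex overlapping, and Ndufa6 by -0.50 ± 0.11 (adjusted p = 0.0313).

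Except for Cox7c, each of these calls was lost in several of the fits that leave out 1 library. Cox6c was lost without any 1 library but germ_saline replicate 1 and soma_saline replicate 1 (adjusted p 0.050 to 0.117), and Ndufs7 without any 1 library but germ_saline replicate 1 and germ_dex replicate 3 (0.052 to 0.141). Ndufa6 was lost without any 1 library but germ_saline replicate 1, soma_dex replicate 3 and soma_saline replicate 1 (0.051 to 0.114). Ndufb9 was lost without germ_dex replicate 2, germ_saline replicate 2 or 3, soma_dex replicate 1 or 3, or soma_saline replicate 2 or 3 (0.054 to 0.091). Ndufc1 missed the threshold (-0.65 ± 0.17, adjusted p = 0.059), as did Cox7a2l (-0.40, adjusted p = 0.067).

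**Figure D5:**
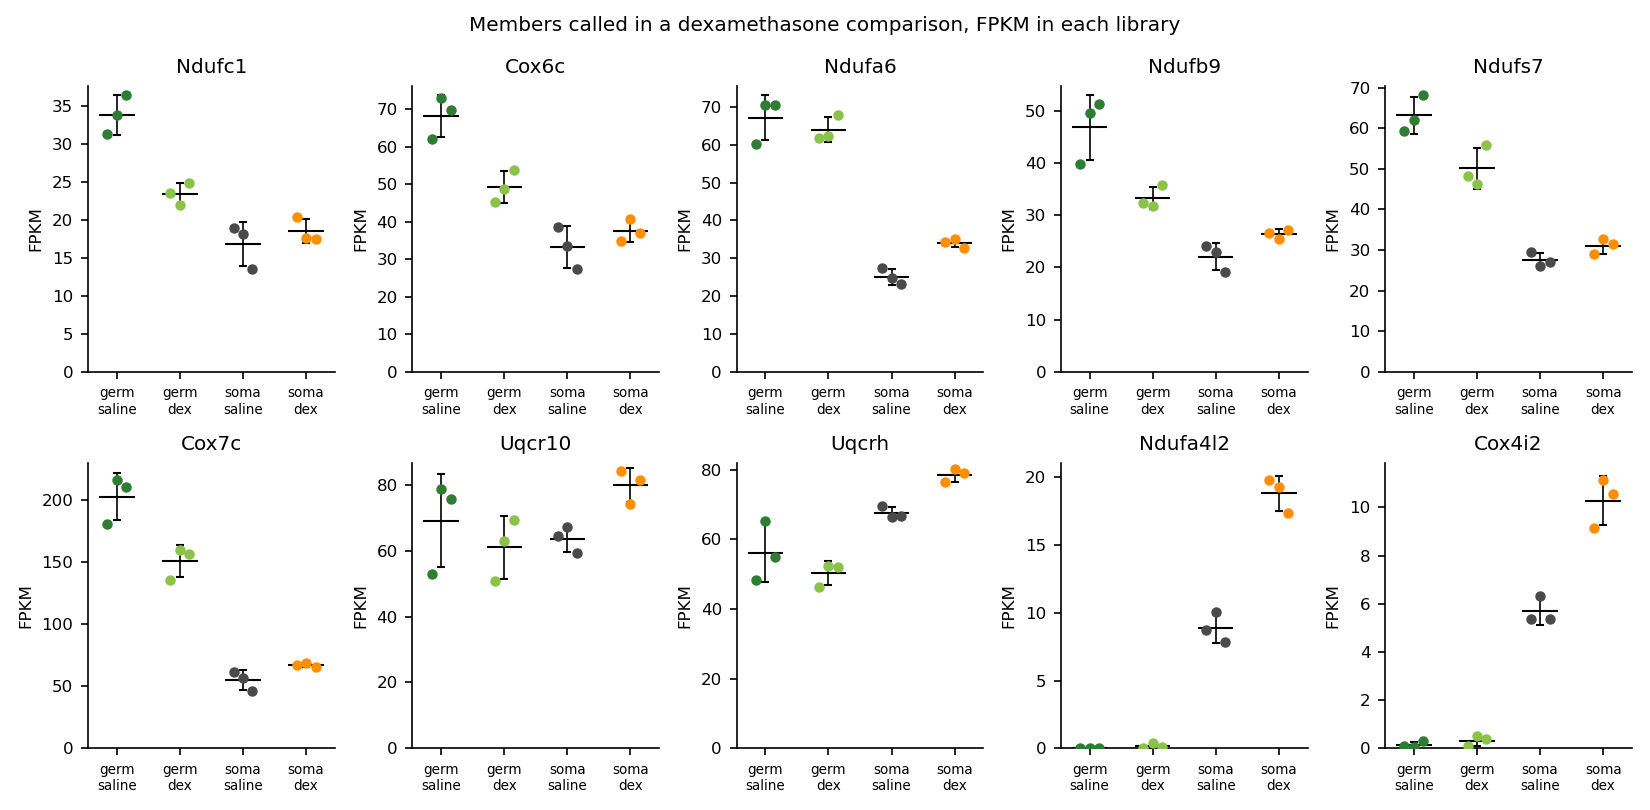
FPKM (y axis, from 0) in each library of the 4 groups for the 10 members called in germ cells, in somatic cells or in the difference of effects; points are libraries and bars are the mean ± SD of 3 libraries. The mean of Cox7c was 202 FPKM in germ_saline and 151 in germ_dex, and 54.8 in soma_saline and 66.9 in soma_dex, while that of Ndufa4l2 was 8.88 in soma_saline and 18.8 in soma_dex and near 0 in germ cells.

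Genes of the same pathway outside the name pattern were read from lists. The subunits encoded by mitochondrial DNA are the partners of the nuclear subunits in complexes I, III, IV and V. Of 12 tested, 12 were lower in germ cells in saline (median -1.22) and 11 in dex. Among all genes tested, 42.9% were lower in saline and 42.2% in dex. The median over all nuclear members was above 0 in both sets of libraries. In dex that median fell below 0 with the length trend removed. The nuclear medians of complexes III and V were below 0 in both sets, so the direction was not opposite in every complex. In somatic cells 5 of 12 were called lower with dex and none higher. The 5 were mt-Nd1, mt-Nd2, mt-Nd5, mt-Cytb and mt-Co1, lower by 0.34 to 0.49 on the log2 scale. Over all genes tested in somatic cells, 8.18% were called in either direction and 4.81% were called higher. The mitochondrial genes were not independent of each other, so this count is a description. In germ cells, 0 of 11 were called with dex, and the difference of effects was called for 0 of 12. Libraries were made from poly-A RNA, and mitochondrial transcripts took 0.843% to 1.44% of germ cell counts and 1.80% to 3.22% of somatic counts. Counted levels were uneven: in soma_saline mt-Co1 averaged 4368 FPKM, against 34.9 for mt-Co2, 30.4 for mt-Atp6 and 26.8 for mt-Co3. In soma_dex mt-Co2 read 52.2 ± 43.5 FPKM (SD), so such genes are poorly measured here. The reason was not tested.

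Of 17 genes for electron carriers and their inputs, 12 were higher in germ cells in saline and 3 lower. Among all genes tested there, 43.1% were higher and 42.9% lower, and these shares also stand beside the assembly factor and regulator counts below. Cyct, a testis form of cytochrome c, was higher by 4.78 on the log2 scale, Coq3 and Pdss1 of ubiquinone synthesis by 3.19 and 2.06, and the electron transfer flavoprotein Etfa by 1.71. Its dimer partner Etfb was lower (-2.60), as were Etfdh (-0.78) and Gpd2 (-1.01). Of 36 further assembly factors, 25 were higher in germ cells and 8 lower, among them Ecsit of complex I (2.58) and Atpaf1 of complex V (2.19) against Surf1 of complex IV (-1.87). Of 18 regulators of mitochondrial gene expression, 12 were higher and 4 lower. The mitochondrial RNA polymerase Polrmt (1.83), the helicase Twnk (2.26), Tfb1m (2.60), Lrpprc (1.97), Nrf1 (0.74) and Tfam (0.69) were higher, and the coactivators Ppargc1a (-4.25) and Ppargc1b (-4.71), Polg2 (-1.43) and Yy1 (-0.31) lower. With dex, 1 gene of these 3 lists was called in either cell type, Twnk in somatic cells (0.35 ± 0.09, adjusted p = 0.0245).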

How the data were processed

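RNA was measured by poly-A, random-hexamer, paired-end RNA-seq in 12 libraries of sorted cells, 3 per group. Per the labels and the study's methods, the authors aligned reads with HISAT2 2.0.5 to mm10, counted them per gene with featureCounts 1.5.0-p3, and deposited whole-number counts and FPKM for each library. Strand and multimapping settings are not given in the sources used here. The authors' own comparison tables (fold changes and p-values from DESeq2 1.20.0) were not used. All columns of the count table that hold a library's values were mapped by name.

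Counts were scaled by TMM, filtered with filterByExpr and tested with edgeR 4.0.16 (glmQLFit and glmQLFTest, R 4.3.3) over all genes, with Benjamini-Hochberg adjustment. A gene was called at an adjusted p of at most 0.05. Dex was compared with saline within each cell type, germ with somatic cells within each treatment, and the difference of the dex effects in a model over all 12 libraries. FPKM as deposited gives levels. The test was checked on simulated counts. DESeq2 1.42.0, RLE scaling, no filter, a replicate block, length and GC trends removed, all libraries in one fit and leaving out each library were alternatives. Named members are the isoform families, complex II, every member called in a dex comparison and the 2 largest called differences per complex and direction between cell types. Other members were named for their role after their values were seen. The members and lists were chosen with earlier results of these data known, and the GC correction and pericyte list were added after seeing the data. With 3 libraries a side no exact permutation test can go below 0.1. Each library pools at least 2 litters, and the labels call replicates biological. Replicate files differed from each other. Shared replicate numbers were not taken as pairs, and the closing section gives the check. Some results for single members are not reported here.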

Additional observations from a re-analysis of the deposited data

Results flagged for a closer look

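Dex effects that differed between germ and somatic cells, by the interaction over all 12 libraries with edgeR's quasi-likelihood test, were those of 5 members. The log2 difference, germ minus soma, was -0.70 for Cox7c (adjusted p = 0.0128), -0.74 for Ndufb9 (0.0248), -0.50 for Ndufa6 (0.0313), -0.63 for Cox6c (0.0378) and -0.50 for Ndufs7 (0.0434). In all 5 the fitted effect was below 0 in germ cells and above 0 in somatic cells. For Ndufa6 the germ cell effect was within its error of 0, at -0.05 ± 0.07 (SE, adjusted p = 0.85), against 0.44 ± 0.08 in somatic cells.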

How the results depend on the processing

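Directions of the members called with dex, and of the largest differences between cell types, held under the alternatives run, except that Uqcr11 turned with the length trend removed, to -0.14 in saline and -0.33 in dex (germ minus soma, from 0.68 and 0.44). The member counts of the dex comparisons rested on few genes near the threshold. In germ cells the 2 calls became 4 with DESeq2, 7 with no filter, 0 with the GC trend removed, 0 with all 12 libraries in one fit and 0 to 4 when leaving out 1 library. Over all genes the 35 calls became 158 with DESeq2, 420 with no filter, 64 with all libraries and 17 to 81 without 1 library. In somatic cells the 5 calls became 3 with the length trend removed, 2 with all libraries and 2 to 5 without 1 library (all genes 1354, then 803 with all libraries and 754 to 1881). The 5 differences of effects became 12 with DESeq2, 8 with no filter and 1 to 9 without 1 library (all genes 314, then 620, 727 and 143 to 384).

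The members' median germ minus soma difference in saline was 0.24, and 0.41 with the GC trend removed and 0.19 to 0.38 without 1 library, the highest without germ_saline replicate 1. In dex it was 0.10, and -0.0503 with the length trend removed and 0.07 to 0.17 without 1 library. Summed CPM in place of FPKM gave germ-over-soma ratios of 1.501 for complex I in dex and 1.34 in saline and 1.07 in dex for complex IV, and in dex moved complexes III and V to 1.04 and 1.01. The complex I ratio without Ndufa1, computed after seeing the data, was 1.60 in saline and 1.41 in dex. The cause of these shifts was not tested.

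Replicate numbers were not taken to pair the samples: same-numbered libraries correlated in their deviations from group means by 0.196, 0.026 and 0.049 between germ_dex and germ_saline, and by 0.092, -0.016 and 0.043 between soma_dex and soma_saline. Between germ and somatic libraries of one treatment the same-numbered values were 0.095, 0.067 and 0.104 in saline and 0.107, 0.075 and 0.108 in dex, and every library correlated best there with its own number. The labels do not say whether these came from the same pooled ovaries, so this is a hint from the data. The replicate block used the replicate number alone. In the dex comparisons and the difference of effects it thus tied dex to saline libraries of the same number. Pairing of germ with somatic libraries within a treatment was not modelled there, so the difference of effects was not tested under it. With a replicate block the member counts were 2, 5, 5, 68 and 71 for germ dex, soma dex, the difference, and germ against soma in saline and dex (2, 5, 5, 68 and 72 without it), and the all-gene counts were 49, 1520, 313, 15283 and 15044. Ndufc1 (adjusted p = 0.053) and Uqcrh (0.051) lost their calls with the block. With 3 libraries a group, small log2 effects lie near the limit of detection, and FPKM carries no correction for reads shared with other genes.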
